A study of Mus musculus with 8 samples.

Results

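DARPP-32, encoded by Ppp1r1b, and 9 other genes of protein phosphatase control were followed in striatal RNA of Dclk3 knockout and wild-type mice. The genes were taken by name, 10 of the 31417 in the table of read counts: the phosphatase inhibitor genes Ppp1r1b, Ppp1r1a and Arpp19, the scaffold gene Ppp1r9b, the catalytic genes Ppp1ca, Ppp1cb, Ppp1cc and Ppp3ca, the tyrosine phosphatase gene Ptpn5, and Arpp21. All 10 were found and all 10 passed the filter on low counts. The knockout group (KO) was 4 mice labelled as Dclk3 knock out and the control group (WT) was 4 mice labelled WT, all aged 12 months, with 1 poly(A) RNA library from a single striatum of each mouse. Dclk3 encodes a doublecortin-like kinase enriched in the striatum. The labels used here do not state how the knockout was made, nor the strain or sex of the mice.

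The striatum receives dopamine and glutamate input, and its main neurons, the medium spiny neurons, turn much of that input into phosphorylation. Dopamine acting on D1 receptors raises cAMP and activates protein kinase A, which phosphorylates DARPP-32 on a threonine and makes it an inhibitor of protein phosphatase 1 (PP1). Calcineurin, which has a catalytic subunit encoded by Ppp3ca and others encoded by Ppp3cb and Ppp3cc, removes that phosphate in response to calcium. In this way DARPP-32 sets dopamine and glutamate signals against each other. These steps act on proteins, and the libraries measured only the messenger RNA level of the genes.

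The threonine that makes DARPP-32 a PP1 inhibitor has a counterpart in inhibitor-1, the Ppp1r1a product. Both are shown because, among the 10 genes, Ppp1r1b and Ppp1r1a encode the inhibitors that share this switch. Arpp19 carries a serine whose phosphorylation by the Greatwall kinase makes it an inhibitor of protein phosphatase 2A (PP2A), and it is shown for contrast. The coding strand is printed 5′ to 3′ from the GENCODE transcripts, with the codon of the phosphorylated residue in capitals and 7 codons before and 5 after it.
Ppp1r1b, threonine codon 34: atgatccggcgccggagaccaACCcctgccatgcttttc
Ppp1r1a, threonine codon 35: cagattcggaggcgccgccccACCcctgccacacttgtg
Arpp19, serine codon 95: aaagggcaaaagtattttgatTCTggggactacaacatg
Codons are counted from the start of the longest annotated coding sequence of each gene. The Ppp1r1b and Ppp1r1a stretches both hold a run of arginine codons, then a proline codon, before the threonine. Over their whole coding sequences, of 585 and 516 bases, Ppp1r1b and Ppp1r1a were identical at 60.4% of 502 aligned positions.

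Libraries held between 24441242 and 37145559 counts. Dclk3 itself measured between 19.6 and 27.7 CPM (counts relative to library size, scaled by TMM) in KO and between 80.9 and 117 CPM in WT, a log2 fold change of -2.06 (SE 0.14, adjusted p = 0.000773, edgeR quasi-likelihood test with Benjamini-Hochberg adjustment). The 15 spiny neuron markers fixed for this tissue, none of which is among the 10 genes, were all detected, with a summed level of 5059 to 5758 CPM in KO and 5019 to 6042 CPM in WT. The markers of other tissue differed between libraries. Choroid plexus markers (10 genes, none at 0) summed to 2995 CPM in WT replicate 4 and to between 43.2 and 251 CPM in the other 7 libraries. Thalamic and subcortical glutamatergic markers (10 genes, none at 0) summed to 555 CPM in KO replicate 4 and to 200 to 360 CPM in the others. Astrocyte markers (12 genes, none at 0) summed to 7422 to 7869 CPM in KO and 6652 to 7297 CPM in WT. Among the marker lists only these astrocyte sums did not overlap between genotypes. The gap was narrow, and how often such sums fail to overlap was not measured. Slc1a2, a large part of the astrocyte sums, overlapped (4054 to 4635 CPM in KO, 3782 to 4433 CPM in WT). Log2 fold changes of KO over WT were above 0 for 10 of 12 astrocyte and 11 of 12 oligodendrocyte markers. So were those of 11 of 11 microglia and 9 of 10 endothelial markers, against 49.5% of all genes tested. Also above 0 were 10 of 10 thalamic and subcortical glutamatergic, 5 of 5 tested blood, 11 of 15 spiny neuron and 8 of 11 interneuron markers. Those of 10 of 10 choroid plexus, 7 of 7 ependymal and 9 of 11 cortical glutamatergic markers were below 0. Outside WT replicate 4, choroid plexus markers summed to 43.2 to 94.4 CPM in WT, against 55.5 to 251 CPM in KO. Their direction thus rests on that library. None of these markers passed an adjusted p of 0.05. In whole tissue, fewer cells of a type and less RNA per cell cannot be told apart.

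None of the 10 genes passed an adjusted p of 0.05 between KO and WT. Log2 fold changes of KO over WT ran from -0.16 for Ppp1r1a to 0.24 for Ppp1cc, with 6 above 0 and 4 below, and a median of 0.012 against -0.0011 over all 16511 genes tested. By this rule 0.00606% of all genes were called, and that single gene was Dclk3. The DESeq2 Wald test also called 0 of the 10, where it called 0.0102% of all genes. At an unadjusted p under 0.05 there was 1 of the 10, Ppp1cc, against 3.76% of all genes tested. The CPM values of KO and WT overlapped for all 10 genes, and 1.93% of all genes tested had groups that did not overlap. All 10 genes had a 95% interval that stayed inside a change of 1.5-fold up or down, as did 77.8% of all genes tested. For 9 of them, all but Ppp1cc, it stayed inside 1.3-fold, as did 61.8% of all genes tested. These shares over all genes were not matched for count level.

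**Figure D1:**
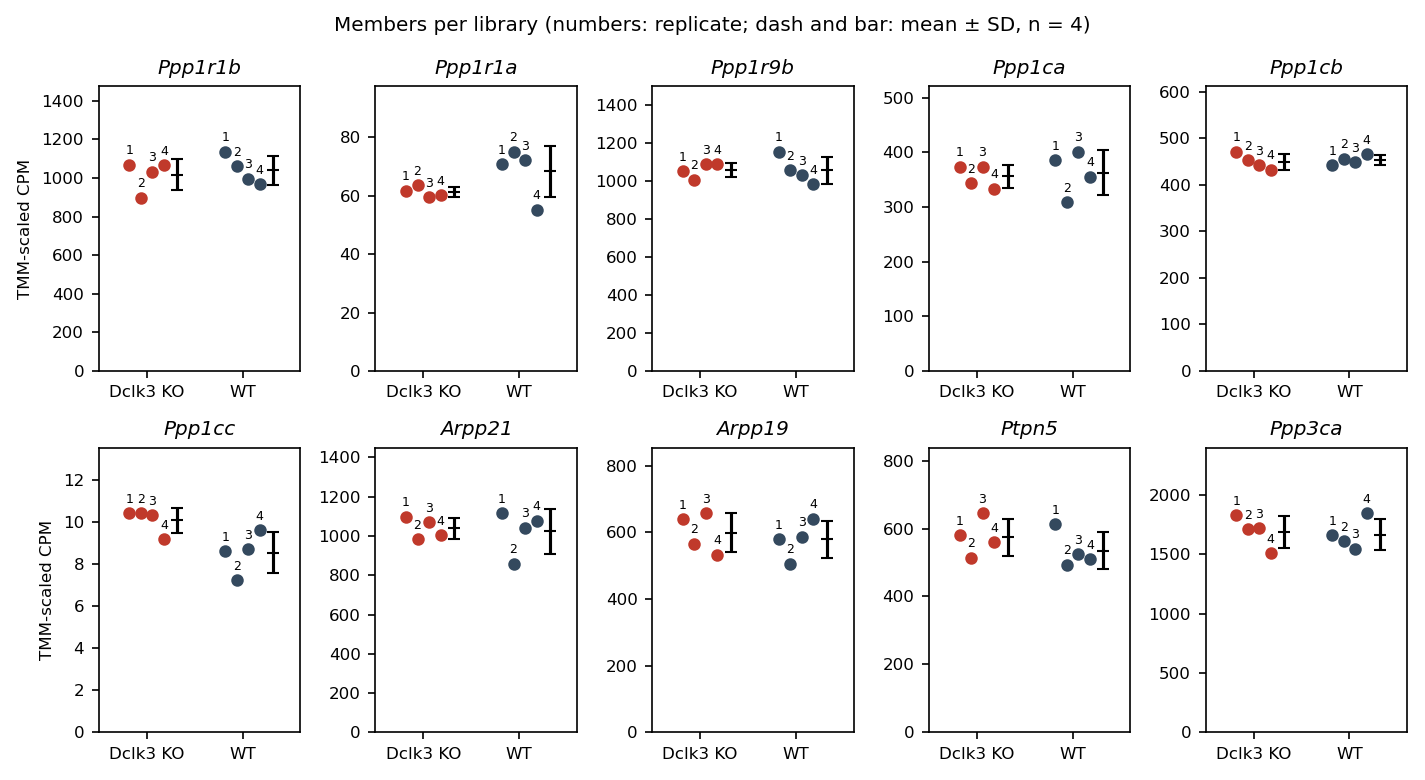
TMM-scaled CPM of the 10 genes (y axis, from 0 and with its own scale in each panel) in each KO and WT library, with the replicate number above each point and the mean ± SD (n = 4) beside each group. KO and WT overlap in every panel; WT replicate 4 lies below the other WT libraries for Ppp1r1a, and KO replicate 4 below the other KO libraries for Ppp1cc.

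Ppp1r1b spans 98348404 to 98357796 of chromosome 11 in GRCm38 (mm10), on the plus strand. It measured 1068, 898, 1033 and 1065 CPM in KO replicates 1 to 4, against 1136, 1061, 997 and 967 CPM in WT replicates 1 to 4. The lowest library was KO replicate 2 and the highest WT replicate 1, and the other 3 KO libraries lay inside the WT range. Means were 1016 CPM ± 80.1 in KO and 1040 CPM ± 74.9 in WT (SD, n = 4 each). The fold change was 0.977, with a 95% interval of 0.873 to 1.09 (adjusted p = 0.999, edgeR quasi-likelihood). An exact two-sided permutation test of the difference in mean CPM over the 70 assignments gave p = 0.743, where 0.0286 is the smallest value 4 against 4 libraries allow. Without KO replicate 2 or without WT replicate 1 the difference was above 0, at 15.2 and 7.83 CPM, so its sign rested on single libraries. An antisense gene, 1700003D09Rik, overlaps 460 bases of Ppp1r1b exons. It held between 0.604 and 1.2 CPM in KO and between 1.09 and 1.78 CPM in WT, which is 0.119% of the counts of both genes.

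Ppp1r1a, inhibitor-1, was much less abundant. Its CPM was 61.8, 63.7, 59.5 and 60.3 in KO replicates 1 to 4, against 70.8, 75.1, 72.2 and 55.3 in WT replicates 1 to 4. All KO libraries lay below 3 of the WT libraries and above WT replicate 4. This gave a log2 fold change of -0.16 (SE 0.085), a 95% interval of -0.34 to 0.03, an unadjusted p of 0.0891 and an adjusted p of 0.999 (edgeR quasi-likelihood). Without WT replicate 4 the log2 fold change was -0.25 with an adjusted p of 0.432 (edgeR quasi-likelihood). The groups then did not overlap, as for 7.12% of genes in that setting. This outcome follows from the choice of library, since WT replicate 4 alone made the groups overlap. The share of genes separated by leaving out any single library was not measured. WT replicate 4 is the library in which choroid plexus markers summed to 2995 CPM, and their part in the Ppp1r1a value was not tested.

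Ppp1r9b encodes spinophilin, which holds PP1 in dendritic spines close to its glutamate receptor substrates. It had 1051, 1007, 1088 and 1090 CPM in KO replicates 1 to 4, against 1155, 1058, 1031 and 985 CPM in WT replicates 1 to 4. Both the lowest and the highest library were WT, so the KO range lay inside the WT range. The log2 fold change was 0.0027 (95% interval -0.14 to 0.14).

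The catalytic subunit of PP1 comes from Ppp1ca, Ppp1cb and Ppp1cc, whose products bind the same regulators. Ppp1ca had 374, 343, 374 and 333 CPM in KO replicates 1 to 4, against 386, 309, 401 and 355 CPM in WT replicates 1 to 4. Ppp1cb had 471, 453, 442 and 432 CPM in KO replicates 1 to 4, against 442, 456, 449 and 466 CPM in WT replicates 1 to 4. Ppp1cb had a coefficient of variation of 3.76% in KO, where Ppp1r1a (3.02%) and Ppp1r9b (3.67%) had lower ones, and of 2.28% in WT, the lowest of the 10 genes there. The median over all genes tested, each taken as the mean of its KO and WT coefficients, was 9.27%. Over the 4639 genes with a mean above 50 CPM it was 6.1%. The log2 fold changes were -0.027 for Ppp1ca (95% interval -0.21 to 0.15) and -0.01 for Ppp1cb (95% interval -0.13 to 0.11). Rad9a, on the opposite strand, shares 225 exon bases with Ppp1ca and held 12.2 to 14.9 CPM in KO and 11.6 to 14.4 CPM in WT. Gm43312, on the same strand, shares 1908 exon bases with Ppp1cb and held at most 0.109 CPM.

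Ppp1cc was counted at far lower levels than its relatives. It had 10.4, 10.4, 10.3 and 9.16 CPM in KO replicates 1 to 4, against 8.6, 7.21, 8.7 and 9.59 CPM in WT replicates 1 to 4. Thus 3 of 4 KO libraries lay above every WT library, while KO replicate 4 lay below WT replicate 4. This gave a log2 fold change of 0.24 (SE 0.1), a 95% interval of 0.01 to 0.46, an unadjusted p of 0.0386 and an adjusted p of 0.999 (edgeR quasi-likelihood). Without KO replicate 4 the log2 fold change was 0.28 with the adjusted p still above 0.05 (edgeR quasi-likelihood). The groups then did not overlap, as for 3.82% of genes in that setting. This outcome also follows from the choice of library, since only KO replicate 4 and WT replicate 4 made the groups overlap. The counts behind these values were 251 to 358 per library.

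The level of Ppp1cc is uncertain because the annotation holds near-identical copies of it. Ppp1ccb, a processed copy, matched 99.7% of a Ppp1cc coding transcript at 99.8% identity, and 3 processed pseudogenes matched 63% to 65.4% of it at 95.6% to 97% identity. The labels do not state how reads that match several genes were counted. Ppp1ccb itself held 0.839 to 1.35 CPM in KO and 0.702 to 1.39 CPM in WT. Adding it to Ppp1cc gave 11.1 CPM ± 0.764 in KO and 9.6 CPM ± 1.17 in WT (SD, n = 4 each), and the groups still overlapped. Ppp1ca and Ppp1cb matched no such copy elsewhere, and the coding sequences of the 3 genes were identical at 74.8% to 77.7% of aligned positions.

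Ppp1ca held most of the PP1 catalytic transcripts in both genotypes. Per kilobase of merged exons, Ppp1ca made up 76.2% ± 0.853 of the sum of the 3 genes in KO and 76.5% ± 2.28 in WT (SD, n = 4 each). Ppp1cb made up 22.2% ± 0.823 in KO and 22.2% ± 2.25 in WT. Ppp1cc made up 1.56%, 1.68%, 1.57% and 1.53% in KO replicates 1 to 4, against 1.28%, 1.26%, 1.25% and 1.5% in WT replicates 1 to 4. These Ppp1cc shares did not overlap, but only narrowly, with KO replicate 4 and WT replicate 4 next to each other. The CPM values of Ppp1cc did overlap. The shares carry the same uncertainty of read assignment as the Ppp1cc level. No test was made of the shares, and how often such shares fail to overlap was not measured. With no correction for length Ppp1cb was the larger part, at 55.1% in KO and 55% in WT, because its merged exons, at 10913 bases, are longer than the 2520 bases of Ppp1ca.

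**Figure D2:**
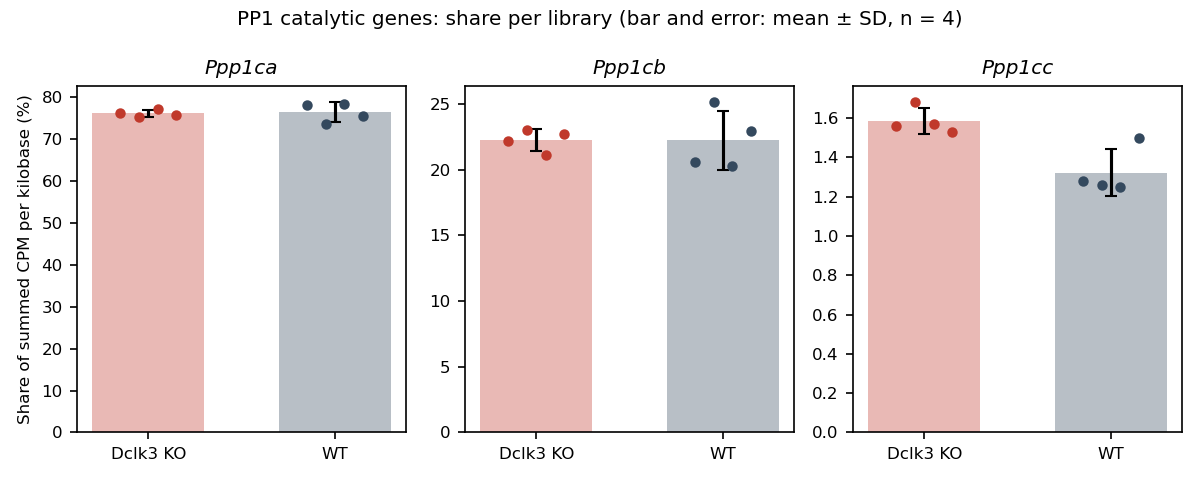
Share of each PP1 catalytic gene in the summed CPM per kilobase of the 3 genes (y axis, percent, from 0 and with its own scale in each panel), with 1 point per library and bars for the mean ± SD of 4 KO and 4 WT libraries. Ppp1ca holds about 76.2% in KO and 76.5% in WT. The Ppp1cc points in KO lie above those in WT, but narrowly for replicate 4 (1.53% in KO and 1.5% in WT).

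Arpp21 and Arpp19 encode small proteins first described, like DARPP-32, as cAMP-regulated phosphoproteins. Arpp21 yields a phosphoprotein of spiny neurons that binds calmodulin and longer products that bind RNA. It had 1099, 984, 1069 and 1004 CPM in KO replicates 1 to 4, against 1116, 860, 1042 and 1077 CPM in WT replicates 1 to 4. Only WT replicate 2 stood below the KO range, and the log2 fold change was 0.021 (95% interval -0.15 to 0.20). Arpp21 lies on chromosome 9 at 112065091 to 112235938, on the minus strand, and is 576 kb from Dclk3. The antisense gene 2900079G21Rik shares 580 of its exon bases and held 0.274% of the counts of both. At 1.93 to 2.66 CPM in KO and 2.58 to 5.14 CPM in WT, 2900079G21Rik had a log2 fold change of -0.53 (unadjusted p = 0.045, adjusted p = 0.999, edgeR quasi-likelihood). Of the 23 other tested genes within 1 Mb of Dclk3, 0 passed the adjusted threshold and 2 had an unadjusted p under 0.05, against 3.76% of all genes tested.

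An intron of Arpp21 holds the microRNA gene Mir128-2, a source of miR-128, a microRNA that restrains the excitability of spiny neurons in mice. Its mature sequence is shown because it is made from the same primary transcript, at chromosome 9, 112118644 to 112118664 on the minus strand (RefSeq, GRCm38.p6), with the seed, bases 2 to 8, in capitals.
mmu-miR-128-3p: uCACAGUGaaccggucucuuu
Mir128-2 had 0 counts in all 8 libraries. A floor of 3 counts corresponds to 0.0822 to 0.123 CPM, and poly(A) libraries do not measure mature microRNAs. Arpp21 CPM therefore describes the host gene alone.

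Arpp19 measured 639, 566, 657 and 533 CPM in KO replicates 1 to 4, against 580, 506, 587 and 641 CPM in WT replicates 1 to 4. KO replicate 3 was the highest and WT replicate 2 the lowest library, and the spread within each genotype (SD 59 in KO and 55.5 in WT) was larger than the difference of the means, 599 and 579 CPM. The log2 fold change was 0.049 (95% interval -0.14 to 0.24).

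Ptpn5 encodes STEP, the striatal-enriched tyrosine phosphatase, which dephosphorylates Fyn and NMDA receptor subunits and which is itself under PP1 and DARPP-32 control. It had 580, 514, 645 and 560 CPM in KO replicates 1 to 4, against 613, 494, 524 and 510 CPM in WT replicates 1 to 4. KO replicate 3 was above all WT libraries, and the other 3 KO libraries lay inside the WT range. The log2 fold change was 0.10 (95% interval -0.08 to 0.29, unadjusted p = 0.245 and adjusted p = 0.999, edgeR quasi-likelihood). Without KO replicate 3 it was 0.043 and without WT replicate 1 it was 0.17.

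Ppp3ca encodes a catalytic subunit of calcineurin, the phosphatase that opposes protein kinase A on DARPP-32. It was the most heavily counted of the 10 genes, with 1829, 1710, 1718 and 1507 CPM in KO replicates 1 to 4, against 1660, 1611, 1549 and 1846 CPM in WT replicates 1 to 4. The replicate 4 libraries lay at both ends of the 8 values. The log2 fold change was 0.021 (95% interval -0.14 to 0.19), and without the fourth library of both genotypes it was 0.13 with an adjusted p of 0.674 (edgeR quasi-likelihood).

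**Figure D3:**
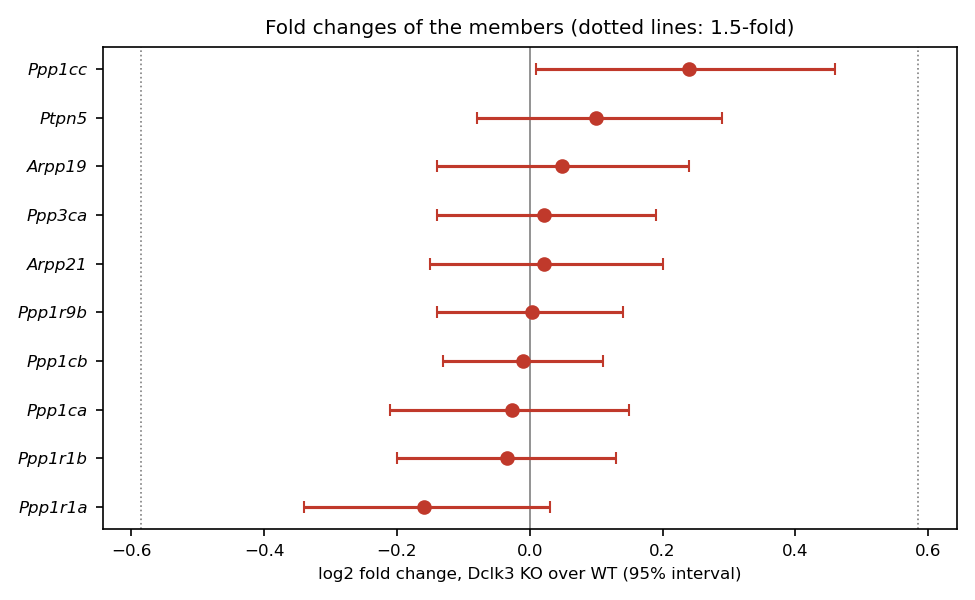
Log2 fold change of KO over WT (x axis) for each of the 10 genes with its 95% interval, from the edgeR quasi-likelihood fit; dotted lines mark 1.5-fold. Every interval lies inside the dotted lines, and only that of Ppp1cc, from 0.01 to 0.46, leaves out 0.

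Levels of different genes were compared per kilobase of merged exons. Ppp1r1b stood highest, at 347 CPM per kb ± 27.3 in KO and 355 CPM per kb ± 25.6 in WT (SD, n = 4 each). Ppp1r9b followed with 208 CPM per kb in each genotype, and its libraries, up to 227 CPM per kb, lay below every Ppp1r1b value. Ppp3ca (169 CPM per kb in KO and 167 in WT), Ppp1ca (141 in KO and 144 in WT), Arpp19 (121 in KO and 117 in WT) and Ptpn5 (99.2 in KO and 92.4 in WT) came next, and neighbours among these overlapped in their ranges over the 8 libraries. Arpp21 (59.6 CPM per kb in KO and 58.7 in WT), Ppp1r1a (46.9 in KO and 52.3 in WT) and Ppp1cb (41.2 in KO and 41.5 in WT) formed a lower run in which neighbours overlapped. Ppp1cc stood apart at 2.94 CPM per kb in KO and 2.49 in WT, with the limit on its counting given above.

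The order depended on the length used for some genes. With the length of the longest coding transcript, Ppp1r1b was again the highest (508 CPM per kb in KO and 520 in WT) and Ppp1cc the lowest. Arpp21 moved from rank 7 to rank 3, at 263 CPM per kb in KO and 259 in WT, since its merged exons span 17428 bases and its longest coding transcript 3952. Ppp3ca, at 355 CPM per kb in KO and 350 in WT, moved to rank 2. Ppp1r9b, at 235 CPM per kb in each genotype, moved from rank 2 to rank 5. The files give counts per gene and do not show which transcripts were present.

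**Figure D4:**
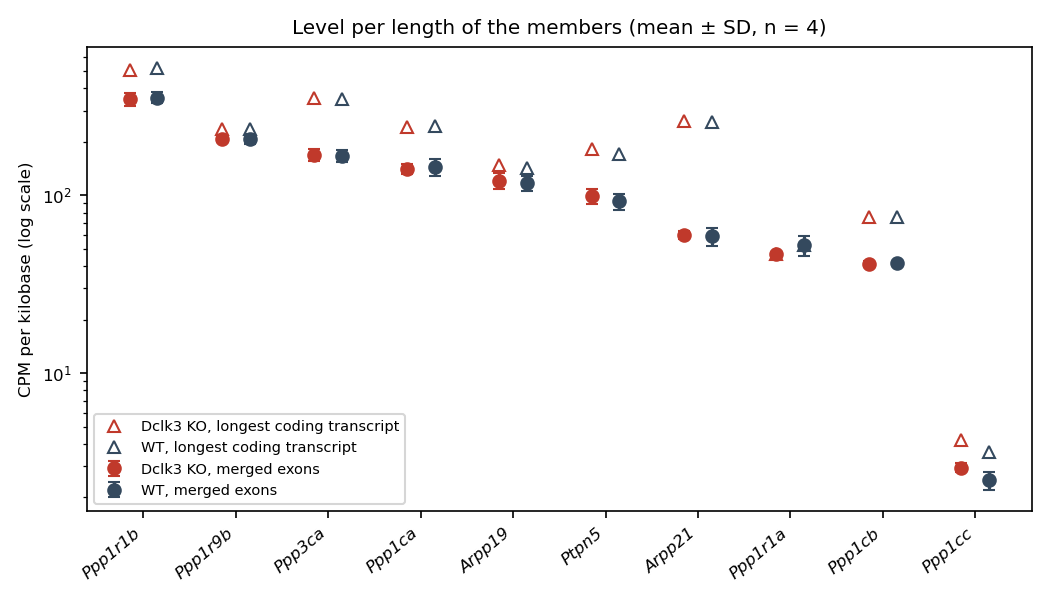
CPM per kilobase (y axis, log scale) of the 10 genes in KO and WT, as circles with SD (n = 4) for the merged exon length and as open triangles for the longest coding transcript. Ppp1r1b is highest and Ppp1cc lowest with both lengths, while Arpp21 shifts most between them.

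Across the 8 libraries the members did not vary as a single block. Of 45 pairs, 28 had a Pearson r above 0 and 17 below, with a median of 0.17 and a range of -0.76 to 0.85. At an unadjusted exact permutation p under 0.05 there were 8 pairs, and 0 passed after Benjamini-Hochberg adjustment over the 45. The share of such pairs among all genes was not measured, so the count is not read as a trait of the members. The highest was Ppp1r1b with Ppp1r9b (r = 0.85, exact permutation p = 0.00871, adjusted p = 0.153, rho = 0.81 with an exact permutation p of 0.0218 and an adjusted p of 0.523). Without the 2 libraries farthest from the median of Ppp1r1b, KO replicate 2 and WT replicate 1, r was 0.81, and with values centred within genotype it was 0.87. Ppp1ca with Arpp21 had r = 0.83 (exact permutation p = 0.00888, adjusted p = 0.153; rho = 0.71, exact permutation p = 0.0576, adjusted p = 0.523), and 0.89 without WT replicates 2 and 3. Values of 1 library share that library's depth and dissection.

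The members were set against the summed level of the 15 spiny neuron markers, a relation examined after the values were seen, and none of the 10 relations passed after adjustment. Over 8 libraries and 10 such relations, Ptpn5 had the highest r, 0.85 (exact permutation p = 0.0096, adjusted p = 0.096; rho = 0.83, exact permutation p = 0.0154, adjusted p = 0.0769), and r was 0.91 without WT replicate 1 and KO replicate 1. Arpp21 had r = 0.69 (exact permutation p = 0.0441, adjusted p = 0.127; rho = 0.83, exact permutation p = 0.0154, adjusted p = 0.0769), and 0.52 without those 2 libraries. Ppp1r9b had r = 0.74 (exact permutation p = 0.0367, adjusted p = 0.127; rho = 0.52, exact permutation p = 0.197, adjusted p = 0.427), and 0.59 without them. Ppp1r1b had r = 0.70 (exact permutation p = 0.0509, adjusted p = 0.127; rho = 0.64, exact permutation p = 0.0962, adjusted p = 0.321), and r dropped to 0.39 without them, so it rested on those libraries. Ppp1cb had r = -0.15 (exact permutation p = 0.724, adjusted p = 0.724; rho = -0.24, exact permutation p = 0.582, adjusted p = 0.582), and -0.56 without them. Ppp1r1a had r = -0.15 (exact permutation p = 0.708, adjusted p = 0.724; rho = -0.43, exact permutation p = 0.299, adjusted p = 0.427), and -0.67 without them.

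**Figure D5:**
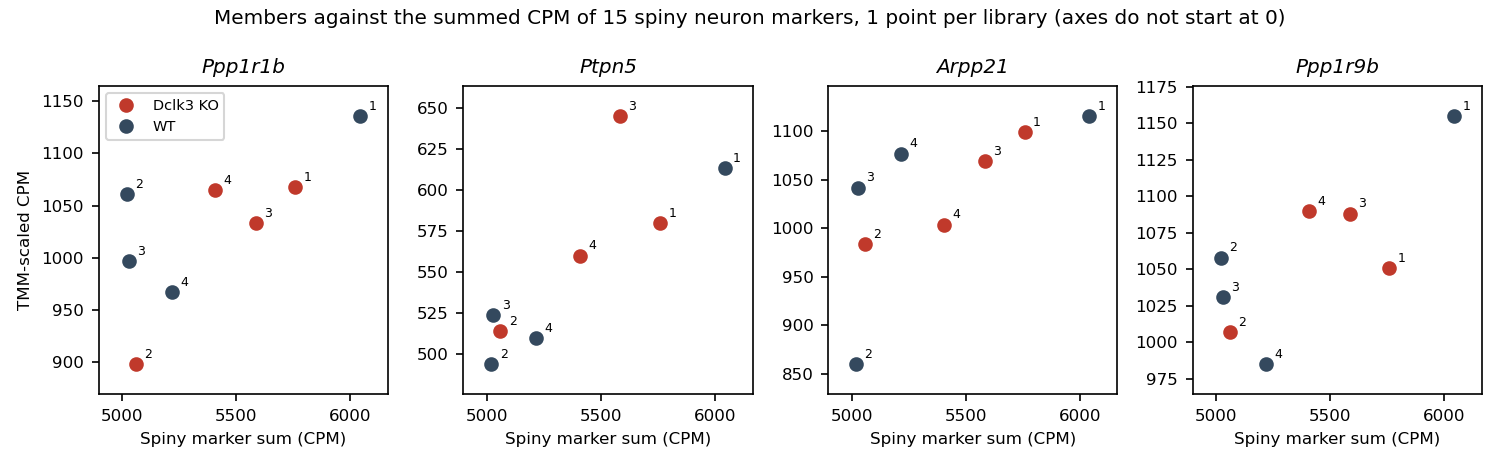
TMM-scaled CPM of Ppp1r1b, Ptpn5, Arpp21 and Ppp1r9b (y axes) against the summed CPM of 15 spiny neuron markers (x axes), with 1 point per KO or WT library and its replicate number; axes do not start at 0. WT replicate 1 has the highest marker sum, 6042 CPM, and the highest Ppp1r1b, Arpp21 and Ppp1r9b values.

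The genes whose profile over the 8 libraries was most like that of Ppp1r1b, among 10104 genes of at least 10 CPM, were AU022252 (r = 0.956), Cacng4 (r = 0.954) and Tmem164 (r = 0.947). Cacng4 encodes an auxiliary subunit of AMPA receptors. Without the 2 libraries farthest from the median of Ppp1r1b, r was 0.89, 0.96 and 0.82. These are the top values of 10104 and are given as a description over 8 libraries, without a test.

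The genes that act around the 10 members were also measured by lists. Of the 23 dopamine and kinase inputs to DARPP-32, such as the dopamine receptors, adenylyl cyclase 5 and protein kinase A, all 23 were tested and 0 passed the adjusted threshold in either direction, with 11 above 0, 12 below and a median log2 fold change of -0.0053. The smallest p belonged to Cdk5r1, the activator of the Cdk5 kinase that phosphorylates DARPP-32 at another threonine and turns it into an inhibitor of protein kinase A. Cdk5r1 had 282, 303, 290 and 287 CPM in KO replicates 1 to 4, against 316, 326, 295 and 316 CPM in WT replicates 1 to 4 (log2 fold change -0.11, 95% interval -0.23 to 0.01, adjusted p = 0.999, edgeR quasi-likelihood). KO replicate 2 overlapped WT replicate 3. Prkar1b and Prkaca, a regulatory and a catalytic subunit of protein kinase A, had log2 fold changes of -0.11 and -0.06, and Prkar1b shares 341 exon bases with another gene on its strand.

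Of 30 other PP1 regulators 28 were tested, with 0 past the threshold, 13 above 0, 15 below and a median of -0.024. Ppp1r37 (-0.10 on the log2 scale), Ppp1r35 (-0.68, at 2.06 CPM in KO and 3.28 CPM in WT) and Ppp1r14b (0.23, at 3.12 CPM in KO and 2.65 CPM in WT) had the smallest p. Of 20 PP2A genes, the list to which the Arpp19 target belongs, all 20 were tested with 0 past the threshold, 11 above 0, 9 below and a median of 0.0081. Ppp2r3c (-0.14), Ppp2r2b (-0.10) and Ppp2r2c (-0.09), all PP2A regulatory subunits, had the smallest p.

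Of 15 other calcineurin genes, all were tested, 0 passed, 5 lay above 0 and 10 below, and the median was -0.025. Rcan2, a calcineurin inhibitor, had 433, 375, 417 and 443 CPM in KO replicates 1 to 4, against 378, 355, 343 and 413 CPM in WT replicates 1 to 4. Its groups overlapped, with a log2 fold change of 0.16 (unadjusted p = 0.0471, adjusted p = 0.999, edgeR quasi-likelihood). The calcineurin-regulated transcription factor genes Nfatc3 and Nfatc1 had 0.13 each on the log2 scale.

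Of 15 STEP substrates and related phosphatases, all were tested, 0 passed, 5 lay above 0 and 10 below, and the median was -0.071. Dusp14, a dual-specificity phosphatase gene, had the smallest p of all these lists. It measured 33.8, 40.6, 44.6 and 34.1 CPM in KO replicates 1 to 4, against 41.6, 56, 49.3 and 52.1 CPM in WT replicates 1 to 4. WT replicate 1 lay inside the KO range, and the log2 fold change was -0.38 (SE 0.11, unadjusted p = 0.00518, adjusted p = 0.999, edgeR quasi-likelihood). Dusp6, another dual-specificity phosphatase gene, had a log2 fold change of -0.38 with an interval of -0.80 to 0.04. The shares of these lists at an unadjusted p under 0.05 were 0 of 23, 0 of 28, 0 of 20, 1 of 15 and 2 of 15 in the order given, against 3.76% of all genes tested.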

How the data were processed

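Per the labels, poly(A) libraries were made from 1000 ng of total RNA of a single striatum with a stranded kit. The authors deposited whole-number read counts per Ensembl gene. Per the submitters' processing notes the build was mm10 and base calling used bcl2fastq 2.17.1.14. No source used here names the aligner, the counter, the annotation or the strand setting. Symbols, spans and lengths came from GENCODE M21 (GRCm38), which matched 31292 of 31417 identifiers.

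Genes were kept by filterByExpr (minimum count 10), which left 16511. Libraries were scaled by TMM. EdgeR 4.0.16 in R 4.3.3 fitted all 8 libraries by robust quasi-likelihood with a genotype term alone. Two-sided p-values were adjusted over the whole set of tested genes (Benjamini-Hochberg). Correlations were taken on log2 CPM (prior count 2), with exact permutation of the pairings. Copies of the genes were searched with blastn 2.17.0 at 95% identity or more over at least 100 bases.

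The members and lists were chosen with earlier results of these data known. The naming rule took all members, the 3 genes of smallest p in each pathway list and the 3 genes most like Ppp1r1b. A gene that the rule names is not reported here. Alternatives were other scalings and filters, DESeq2 1.42.0, limma-voom (limma 3.58.1), the replicate number as a block, and libraries left out. Intervals cover 95%, and floors of 3 counts cover counting error only. Within a genotype no pair of libraries was a copy: chi-square per degree of freedom was at least 7.12.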

Additional observations from a re-analysis of the deposited data

Results flagged for a closer look

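Dixon's test was run on 28 groups of 4 libraries, covering the 10 genes, Dclk3 and the 3 PP1 catalytic shares. In 2 groups it flagged a library far from the others, where chance flags about 1 in 20. A count of 2 among 28 is near that rate. The groups are also not independent, since the shares are computed from the CPM of the same 3 catalytic genes. Both flags involve Ppp1cc, and they are not read as a trait of that gene. In KO, replicate 4 was low at 9.16 CPM, with the other 3 libraries between 10.3 and 10.4 CPM. In WT, replicate 4 had a high Ppp1cc share of PP1 catalytic transcripts, 1.5%, with the other 3 between 1.25% and 1.28%. KO replicate 4 also had the highest summed thalamic markers (555 CPM) and WT replicate 4 the highest summed choroid plexus markers (2995 CPM), and their part in these values was not tested.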

How the results depend on the processing

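The number of genes past the threshold was 1 in the reported fit, 3 with the DESeq2 Wald test (Dclk3, Malat1 and 1520401A03Rik), 3 without the fourth library of both genotypes (Dclk3, Gpr101 and Gm26917), and between 1 and 2 when a single library was left out; these names were taken after their values were seen. None was among the 10 members, whose adjusted p ran from 0.241 (Ppp1r1a) upwards over 17 alternatives. With no filter Dclk3 had a log2 fold change of -2.07 and an adjusted p of 0.0647 (edgeR quasi-likelihood), and the 1 gene past the threshold was Malat1 instead. Leaving out single libraries moved Dclk3 between -2.17 and -1.95. Ppp1r1a, Ppp1cc and Ptpn5 kept their sign in all 17 alternatives, within -0.25 to -0.11, 0.16 to 0.34 and 0.039 to 0.17.

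The others lay near 0 and changed sign in some, without passing the threshold. When single libraries were left out, Ppp1r1b ran from -0.067 to 0.021 (its CPM difference from -48.4 to 15.2), Ppp1r9b from -0.03 to 0.047, Ppp1ca from -0.10 to 0.025, Ppp1cb from -0.034 to 0.0083, Arpp21 from -0.054 to 0.065, Arpp19 from -0.01 to 0.10 and Ppp3ca from -0.019 to 0.074. Ppp1r9b was -0.001 with no filter, -0.041 with limma-voom, -0.044 without the fourth library of both genotypes and -0.014 without KO libraries 1 and 4. Limma-voom gave 0.01 for Ppp1cb and -0.0075 for Arpp21, and Ppp1cb was 0.022 without the fourth libraries. The cause was not tested.

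The replicate numbers showed no sign of pairing the samples. Deviations of same-numbered libraries correlated between -0.28 and 0.05, and 1 of 8 libraries correlated best with its own number. Differences of dissection between libraries enter these correlations, so they cannot exclude a shared batch. With the replicate block the count of calls was again 1 and Ppp1r1b had a log2 fold change of -0.034. The size of difference that 4 mice per genotype could detect was not tested, and the intervals given above do not measure it. The interval of Ppp1cc, 0.01 to 0.46 on the log2 scale, left out 0, yet its adjusted p was 0.999 (edgeR quasi-likelihood). Ppp1cc rests on 251 to 358 counts per library.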
